A study of Mus musculus with 2 samples.

Results

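Transcripts of 10 genes of the opioid and endocannabinoid systems were measured in bulk RNA from mouse brain: 4 opioid receptor genes (Oprm1, Oprd1, Oprk1 and Oprl1) and 6 endocannabinoid genes (Cnr1, Dagla, Daglb, Mgll, Faah and Napepld). The members were chosen by gene symbol, by a rule that uses none of their values, although earlier results of these data were known. All 10 were found among the 53055 genes present in both deposited tables. The wider study imaged isoforms in tissue sections, and provided 2 libraries of polyadenylated RNA from wild-type C57BL/6J male brain at 14 weeks, with no treatment named in the labels. The tissue of the first library was matched in its anterior-posterior position to anterior sections imaged by MERFISH, a microscopy method that counts RNA molecules in place, and that of the second library to posterior sections. Each position had 1 library, so no p-value was computed and the spread between animals is unknown. The labels do not say how many animals gave each piece of tissue. Position, library and quantification pipeline changed together and cannot be told apart. In bulk RNA, fewer cells of a type and less RNA per cell cannot be told apart either.

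Opioid receptors are G protein-coupled receptors of the inhibitory Gi/o class that respond to peptides cut from larger precursors. In neurons they reduce transmitter release and open inwardly rectifying potassium channels. The endocannabinoid system runs in the opposite direction across many synapses: lipids made in the postsynaptic cell on demand act on the presynaptic cannabinoid receptor CB1 and reduce release. The lipid 2-arachidonoylglycerol (2-AG) is made by diacylglycerol lipases and broken down mainly by monoacylglycerol lipase, whereas anandamide can be made by N-acylphosphatidylethanolamine phospholipase D and is broken down by fatty acid amide hydrolase.

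On build mm10 the members lie apart on 7 chromosomes. The receptor genes are at chr10:6758506-7038198 (Oprm1), chr4:132110726-132144486 (Oprd1), chr1:5588466-5606131 (Oprk1), chr2:181715016-181720985 (Oprl1) and chr4:33924593-33948831 (Cnr1). The enzyme genes are at chr19:10245265-10304877 (Dagla), chr5:143464584-143505942 (Daglb), chr6:88724412-88828360 (Mgll), chr4:115967145-116017926 (Faah) and chr5:21662901-21701396 (Napepld). Oprd1, Dagla, Faah and Napepld are on the minus strand.

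The sequences below show stretches where the annotated coding sequences of some member transcripts differ. They were taken from the GENCODE M21 transcripts (GRCm38) and written 5′ to 3′ on the plus strand. In Oprm1, which encodes the mu receptor, 1 transcript, Oprm1-215, held most of the signal. Its annotated coding end differs after a shared exon from those of several minor transcripts, of which some are printed. Those printed had 13.9 (Oprm1-213), 12.2 (Oprm1-212) and 5.05 (Oprm1-201) estimated fragments of 898 for the gene. Lower case gives the last 21 shared bases, and capitals give the transcript's own coding end with its stop codon.
Oprm1-215: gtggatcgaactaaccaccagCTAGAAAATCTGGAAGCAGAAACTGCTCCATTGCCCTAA
Oprm1-213: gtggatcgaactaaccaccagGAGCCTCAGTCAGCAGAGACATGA
Oprm1-212: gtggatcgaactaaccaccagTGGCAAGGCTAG
Oprm1-201: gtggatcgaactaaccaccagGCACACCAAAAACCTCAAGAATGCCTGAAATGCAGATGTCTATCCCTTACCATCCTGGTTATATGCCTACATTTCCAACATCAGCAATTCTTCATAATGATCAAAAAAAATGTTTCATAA
The capitals lie at chr10:6849806-6849844 for Oprm1-215, chr10:6839535-6839558 for Oprm1-213, chr10:6831937-6831948 for Oprm1-212 and chr10:6838405-6838524 for Oprm1-201. In Oprl1, the nociceptin receptor gene, the second most abundant transcript carries an exon of 34 bases at chr2:181716502-181716535, shown in capitals between its neighbours, and the leading transcript joins those neighbours directly.
Oprl1-202: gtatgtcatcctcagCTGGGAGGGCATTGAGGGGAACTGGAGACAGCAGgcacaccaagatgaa
Oprl1-201: gtatgtcatcctcaggcacaccaagatgaa
The first exon of the Mgll transcript Mgll-201 holds the bases printed last below too, but its annotated coding sequence starts in the next exon. In Mgll, which encodes monoacylglycerol lipase, the second most abundant transcript is annotated to start its coding sequence in its first exon, at chr6:88725151-88725178. Its start codon is in capitals.
Mgll-207: ATGcaaaagccaagactaatggaaacag

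Depth was 43558839 fragments in genes for the anterior library and 147138183 estimated fragments for the posterior library, 3.38 times as many. Differences between libraries are given as fragment share, the fragments of a gene scaled to a total of 1000000 fragments in protein-coding genes (FPM), which uses no gene length. Levels are given as FPKM, the fragments of a gene scaled to its length in kb and to the library total. The anterior length of each member was that of all its annotated exons joined, and the posterior length was the effective length of its transcripts, which was shorter by 1.08 times for Oprd1 up to 3.98 times for Oprm1. FPKM values of a gene are therefore on different length scales in the 2 libraries, and a posterior value per kb of the anterior gene length is given where it matters. Intervals (95%) reflect counting error alone; the fragments carry no molecular identifiers and need not be independent molecules.

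Among the opioid receptors, Oprl1 was the most abundant and Oprm1 the least abundant in both libraries, and the delta receptor gene Oprd1 had a larger part of the receptor signal in the anterior library. Oprm1 had 117 anterior and 898 posterior fragments, or 2.76 and 6.67 FPM. Its posterior share was 2.42 times its anterior share (2.00 to 2.96). Its anterior FPKM was 0.399 (0.330 to 0.478) and its posterior FPKM 3.02 (2.83 to 3.23), but the posterior value per kb of the anterior gene length was 0.759. Oprm1 passed the minimum of FPKM 1 used for comparison only through the posterior library, and on the anterior gene length it would not have passed in either.

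Oprd1 ran the other way. It had 1497 anterior and 2576 posterior fragments, or 35.3 and 19.2 FPM, so its anterior share was 1.84 times the posterior (1.73 to 1.96). The FPKM was 10.2 (9.68 to 10.7) in anterior RNA and 4.69 (4.51 to 4.87) in posterior RNA. The kappa receptor gene Oprk1 had 488 and 2017 fragments, with FPKM of 1.46 (1.33 to 1.60) and 3.60 (3.44 to 3.76). Its posterior share was 1.30 times the anterior (1.18 to 1.44), a smaller gap than that of Oprm1 and in the same direction. Oprl1 had 2004 and 6652 fragments, with FPKM of 14.6 (14.0 to 15.3) and 18.2 (17.8 to 18.7). Its shares in the 2 libraries did not differ beyond counting error, with a ratio of 1.05 (0.996 to 1.10).

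The balance among the receptors differed between the libraries for every pair formed with Oprd1. The ratio of Oprd1 to Oprm1 was 25.6 in anterior FPKM and 1.55 in posterior FPKM, or 5.74 on the anterior gene length. In fragments, where length cancels within a gene, the ratio was 4.46 times higher in the anterior library (3.64 to 5.46). The ratio of Oprd1 to Oprk1 was 2.40 times higher in the anterior library (2.14 to 2.70), and that of Oprl1 to Oprd1 was 1.93 times higher in the posterior library (1.78 to 2.09). Oprk1 and Oprm1 both had the higher share in the posterior library, yet the ratio of Oprk1 to Oprm1 was 1.86 times higher in the anterior library (1.49 to 2.31). Of the summed FPKM of the 4 receptors, Oprl1 made up 54.8% in anterior RNA and 61.7% in posterior RNA. Oprd1 made up 38.2% and 15.9%, or 23.3% in the posterior library on the anterior gene length. Oprm1 made up 1.49% and 10.2%, or 4.07% on the anterior gene length, so its part was larger in the posterior library on both length scales.

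**Figure D1:**
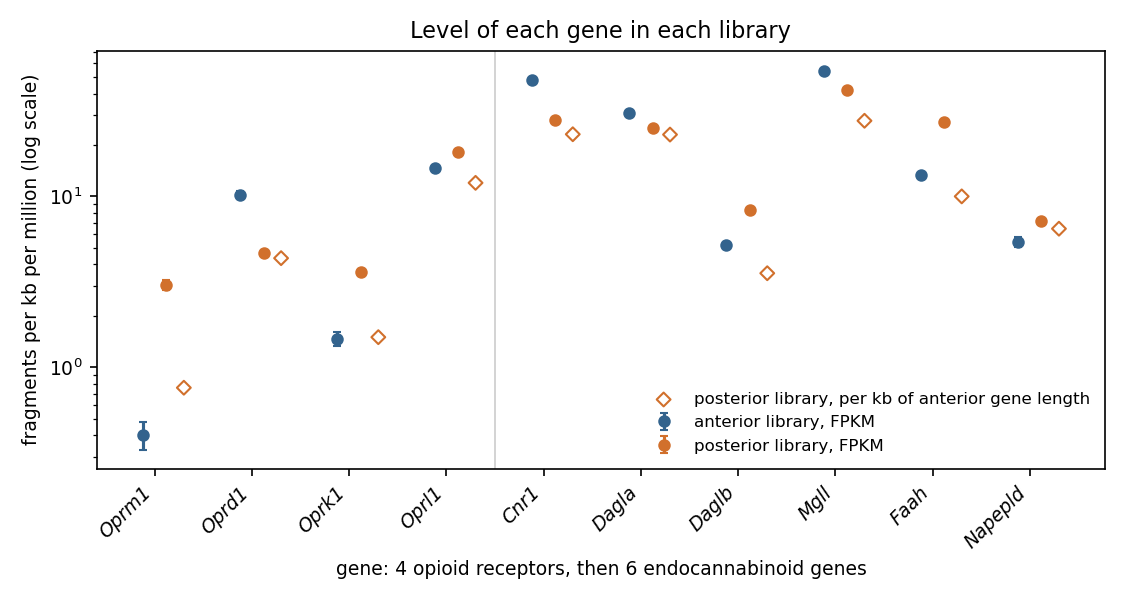
Level of each gene in FPKM units (log axis) in anterior and posterior RNA; filled points are FPKM with 95% counting intervals, and open diamonds are the posterior value per kb of the anterior gene length. Mgll and Cnr1 lie highest in both libraries, and Oprm1 lowest, at 0.399 (anterior) and 3.02 (posterior).

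In the endocannabinoid group, the receptor gene Cnr1 and the 2-AG degrading enzyme gene Mgll were both abundant and both had the higher share in the anterior library. Cnr1, which encodes CB1, had 11298 anterior and 21916 posterior fragments, or 266 and 163 FPM. Its anterior share was 1.63 times the posterior (1.60 to 1.67), with FPKM of 48.0 (47.1 to 48.9) and 28.0 (27.7 to 28.4). CB1 in cortex is known for its high level in interneurons that make cholecystokinin, and that gene, Cck, had 2.24 times the share in the anterior library (2.19 to 2.28), but its log2 difference on the FPKM scale was -0.42, within 2-fold. The wider list of Cck or Vip interneuron markers was not uniform: 2 of its 4 genes were past 2-fold toward the anterior side and 1, Sncg, toward the posterior side, and the median log2 difference was -1.01. On the FPKM scale 1 was past 2-fold toward each side, with a median of -0.56. Markers of cortical excitatory neurons also ran to the anterior library, with a median of -0.85 over 6 genes, of which 2 were past 2-fold. By share, 1.84% of all compared genes were past 2-fold toward the anterior side and 8.19% toward the posterior side. Rorb of that list ran the other way by share, with a posterior share 1.48 times the anterior (1.41 to 1.56). On the FPKM scale Rorb was at -0.13 and Cux2 of the same list at 0.21. There 3 of the list were past 2-fold toward the anterior side, as were 7.11% of all compared genes, and the median was -1.11. Summed shares in FPM were 449 and 206 for the interneuron list and 1988 and 1210 for the excitatory list, anterior before posterior, and no marker was at 0. Most of the interneuron sum came from Cck, with 16575 and 23469 fragments, beside 2106 and 2991 for Vip. Whether that Cck RNA came from interneurons was not tested. The part of either cell group in the values of Cnr1 was not tested.

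Mgll had 10027 anterior and 20718 posterior fragments, with FPKM of 54.1 (53.0 to 55.1) and 42.0 (41.5 to 42.6), the highest of the 10 members in each library. Its anterior share was 1.53 times the posterior (1.5 to 1.57). The 2 diacylglycerol lipase genes, whose products make 2-AG, had share ratios closer to 1. Dagla, which encodes the alpha lipase, had 6484 and 19425 fragments and a posterior share 0.946 times the anterior (0.919 to 0.973), but its log2 difference was -0.92 on the FPKM scale in place of -0.08. Daglb, which encodes the beta lipase, had 1811 and 4998 fragments and a ratio of 0.871 (0.825 to 0.920). Dagla stood above Daglb by 5.96 times in anterior FPKM and by 3.03 times in posterior FPKM, or 6.47 times on the anterior gene length, so the size of that gap depended on the length used. In fragments, the Dagla to Daglb ratio was 1.09 times higher in the posterior library (1.02 to 1.15).

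Of the annotated exonic bases of Daglb, 24.1%, or 2309 bases in its last exon, lie under Rac1 on the other strand, and 24.5% of its 31-base words occur in transcripts of other genes. Rac1, which encodes a small GTPase, had 10642 and 37603 fragments. The use of strand in counting the anterior library was not given in the sources used here, so fragments of Daglb and Rac1 in that stretch may not have been told apart. Such an overlap spans 167 bases in Mgll (3.29%, with Gm26588) and 96 bases in Oprm1 (1.19%, with Ipcef1), and the other 7 members share no exonic base with another gene.

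For anandamide, the hydrolase gene Faah had 3811 and 11534 fragments, or 89.8 and 85.8 FPM. Its posterior share was 0.955 times the anterior (0.921 to 0.991), while anterior FPKM was 13.3 (12.9 to 13.7) and posterior FPKM was 27.1 (26.6 to 27.6). On the anterior gene length the posterior interval was 9.82 to 10.2. Napepld, whose product can release anandamide, had 784 and 3767 fragments, with FPKM of 5.43 (5.05 to 5.82) and 7.15 (6.92 to 7.38). Its posterior share was 1.52 times the anterior (1.40 to 1.64), but its centred log2 difference of 0.58 lay just under the 1.5-fold line. The ratio of Napepld to Faah in fragments was 1.59 times higher in the posterior library (1.46 to 1.73). For 2-AG the ratio of Dagla to Mgll was 1.45 times higher there (1.40 to 1.5). The ratio of the 2 degrading enzymes, Mgll to Faah, was 0.683 times as high in the posterior library (0.654 to 0.713).

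**Figure D2:**
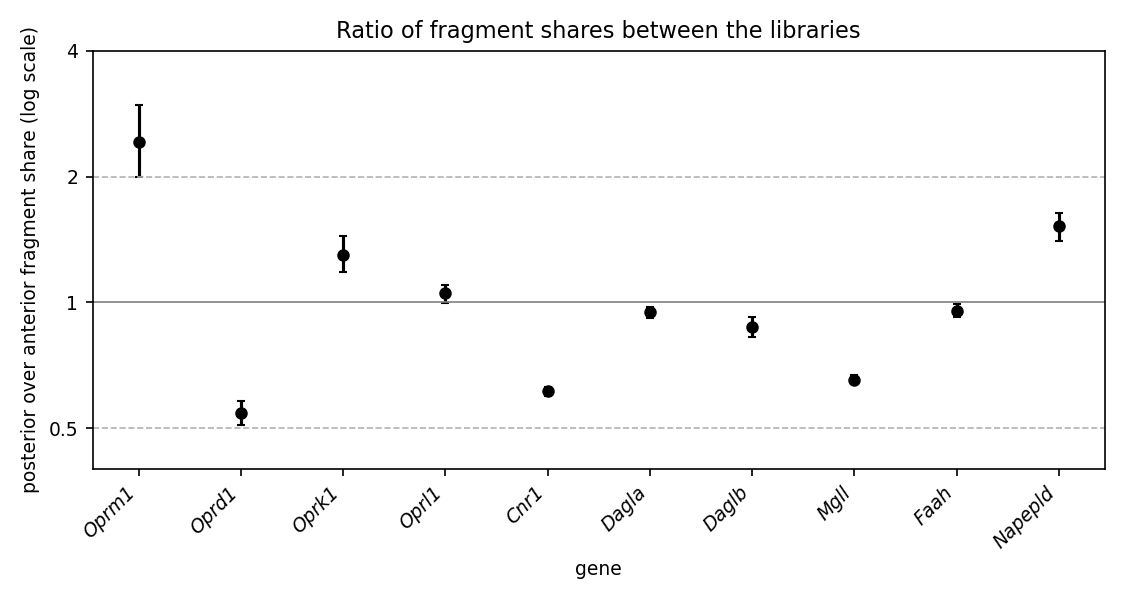
Posterior over anterior fragment share of each member (log axis), with 95% exact intervals that cover counting error only; the solid line marks equal shares and dashed lines mark 2-fold. Oprm1 lies at 2.42, Oprd1, Cnr1 and Mgll lie between 0.543 and 0.652, and the interval of Oprl1 reaches 1.

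The differences above were set against 13339 protein-coding genes with FPKM of at least 1 in either library, on the log2 scale with a pseudocount of 0.5 and centred on their median. All 10 members were compared, and 9 reached FPKM 1 in both libraries. Oprm1 was the 1 member past 2-fold toward the posterior library, as were 8.19% of all compared genes, and no member was past 2-fold toward the anterior library, as were 1.84% of genes. At 1.5-fold, 1 member was higher in the posterior library (15.1% of all genes) and 3, Oprd1, Cnr1 and Mgll, in the anterior library (5.53%). On the FPKM scale, Oprm1 was 2-fold higher in the posterior library (14.5% of all genes), and Oprd1 and Cnr1 in the anterior library (7.11%). The members' median log2 difference was -0.08, with 6 below 0 and 4 above, beside quartiles of -0.21 and 0.32 over all compared genes.

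By level, the anterior order ran Mgll, Cnr1, Dagla, Oprl1, Faah, Oprd1, Napepld, Daglb, Oprk1 and Oprm1. The intervals of Napepld and Daglb overlapped, and no other neighbours did. In posterior FPKM the order was Mgll, Cnr1, Faah, Dagla, Oprl1, Daglb, Napepld, Oprd1, Oprk1 and Oprm1, with no overlap between neighbours. On the anterior gene length the posterior order differed from the anterior order only in that Napepld stood above Oprd1, and there Cnr1 at 23.1 (22.8 to 23.4) and Dagla at 23.0 (22.7 to 23.3) overlapped. The third place of Faah was thus seen only with the transcript lengths, and only with its non-coding transcripts counted. Its protein-coding transcript Faah-201 alone had FPKM 15.6, below 24.3 for Dagla-201, the protein-coding transcript of Dagla.

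Transcripts could be read in the posterior library alone. The estimation error of the transcript counts was not used here, so these shares carry no interval. The leading transcript was annotated protein coding for 10 of 10 members. Oprm1-215 held 89.7% of Oprm1 FPKM and 831 of the 898 fragments, although 31 transcripts are annotated. Of these, 23 were at 0, and 7 others shared 67.1 fragments, with 5.05 to 13.9 each, so their order is not readable. These zeros are estimates that divide fragments among overlapping transcripts, so no counting limit was set on them. Oprm1-215 encodes 398 codons and ends in the 12 codons printed above in capitals, and it starts 30216 bases upstream of Oprm1-201. Oprm1-203 and Oprm1-208 have the same number of codons and the same annotated start, and they stood at 0. No annotated transcript with 398 codons has the start of Oprm1-201, so the start in use cannot be read from the share of Oprm1-215.

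Oprd1 has 1 annotated transcript. Oprk1-204 held 70.4% of Oprk1 FPKM, and the retained-intron transcripts Oprk1-205 and Oprk1-202 held 13.2% and 10.4%. In Oprl1, Oprl1-201 held 56.9% and Oprl1-202, with the 34-base exon printed above, held 20.1%. Oprl1-202 is annotated with 353 codons and Oprl1-201 with 367. Their annotated coding sequences also differ in where they start within a shared exon. That of Oprl1-202 starts 783 bases from the start of Oprl1-201, and that of Oprl1-201 starts 707 bases from it. Oprl1-209, annotated as a target of nonsense-mediated decay, which removes messages with an early stop, held 9.20%.

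Among the endocannabinoid genes, Dagla-201 held 96.6%, Daglb-201 84.0% and Cnr1-201 87.2% of the FPKM of their genes, and the rest of Daglb (16.0%) was in retained-intron transcripts. Cnr1-202 held 8.83%, starts 1570 bases further on and has the same 473 codons. Mgll was spread over more starts: Mgll-204 held 54.8%, Mgll-207 24.1% and Mgll-201 16.0%. Mgll-207 and Mgll-201 start 292 and 416 bases after Mgll-204, and Mgll-207 has 319 codons beside 303 in the other two. Napepld-202 held 63.3% and Napepld-201 36.7%, and they share 396 codons but differ in their first exon, of 420 and 192 bases.

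Faah had the largest non-coding share of the 10 members. Faah-201, its single protein-coding transcript, held 57.7% of FPKM, retained-intron transcripts held 32.3%, and non-coding transcripts together held 42.3%, or 3391 of the 11534 fragments (29.4%). Over 11965 genes with at least 2 transcripts, the median non-coding share was 10.1% with an upper quartile of 26.7%, and 9.64% of genes had a retained-intron share of 30% or more. In the same genes the leading transcript had a median of 68.2% (quartiles 49.1% and 87.7%). The leading shares of Dagla and Oprm1 lay above that upper quartile, and those of the other members with several transcripts lay inside the quartiles. With the posterior library restricted to protein-coding transcripts, the log2 difference of Faah was -0.45 in place of -0.07. The anterior values are per gene and could not be restricted in the same way. A fall was therefore built in for a gene with so large a non-coding share.

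**Figure D3:**
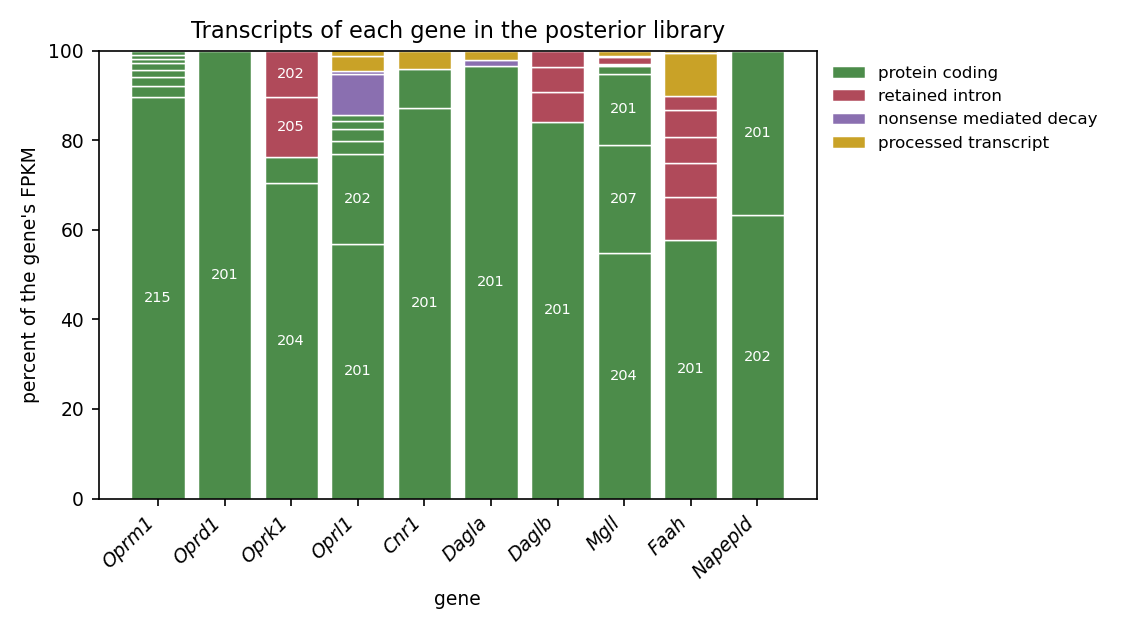
Percent of each gene's FPKM in each of its transcripts in the posterior library, coloured by annotated biotype, with the transcript number in the larger segments. Oprm1 is mostly Oprm1-215 (89.7%), Mgll and Oprl1 are split among coding transcripts, and Faah has 42.3% in non-coding transcripts.

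**Figure D4:**
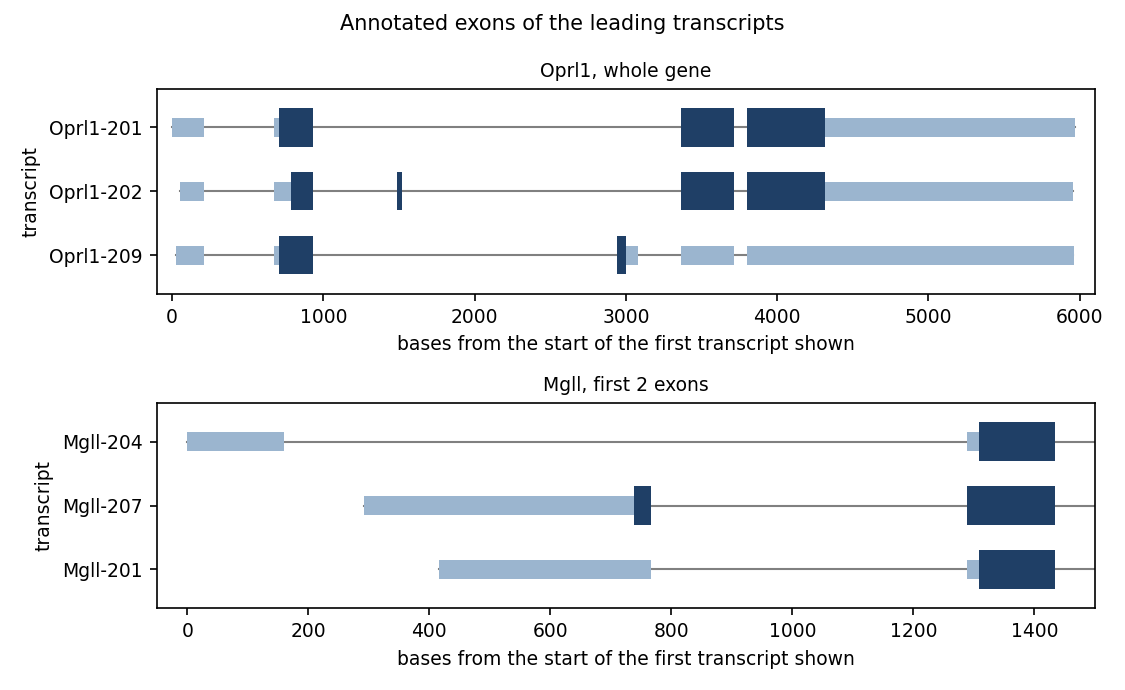
Annotated exons of the main Oprl1 transcripts (whole gene) and of the first 2 exons of the main Mgll transcripts, with distance in bases from the first start shown; thick dark blocks are coding and thin light blocks are not. Oprl1-202 has the extra exon of 34 bases, and the coding sequence of Mgll-207 starts in its first exon, 292 bases being the distance of its start from that of Mgll-204.

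The precursors of the opioid peptides, the ligands of these receptors, all had the higher share in the posterior library. All 4 precursor genes were compared, and 2 were past 2-fold toward the posterior side, as were 8.19% of all compared genes. Penk, the proenkephalin gene, had 1424 and 14850 fragments and a posterior share 3.29 times the anterior (3.12 to 3.48). Pomc, the proopiomelanocortin gene, had 61 and 1116 fragments and a ratio of 5.77 (4.46 to 7.60). The genes for prodynorphin and pronociceptin, Pdyn and Pnoc, had ratios of 1.41 (1.32 to 1.51) and 1.61 (1.40 to 1.85), and the median log2 difference of the list was 1.17. On the FPKM scale Penk and Pomc stayed past 2-fold and the median was 0.93. Pdyn at -0.0 and Pnoc at 0.07 showed almost no difference on that scale. Of 4 peptide processing genes none was 2-fold apart, beside 8.19% (posterior) and 1.84% (anterior) of all compared genes, and their median was -0.19. Cpe, the carboxypeptidase E gene, was the most abundant of them at FPKM 798 and 903.

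Markers of several deep brain regions also had higher shares in the posterior library. Those of thalamus were 2-fold higher there in 4 of 4 genes (median log2 3.12), of hypothalamus in 4 of 5 (4.53), of medial habenula in 3 of 4 (2.03) and of striatal medium spiny neurons in 2 of 6 (0.83). Beside these and the counts below, 8.19% of all compared genes were past 2-fold toward the posterior side and 1.84% toward the anterior side. Summed shares in FPM were 34.2 and 418 for thalamus, 1.20 and 297 for hypothalamus, 88.0 and 104 for medial habenula and 229 and 350 for striatal neurons, anterior before posterior. No marker was at 0 in either library. Genes that were below FPKM 1 in the anterior library entered these counts only through the posterior library: 2 of thalamus, 5 of hypothalamus, 3 of medial habenula and 1, Drd2, of the striatal list. Nwd2, the habenula marker above FPKM 1 in both, had a ratio of 0.986 (0.95 to 1.02), and on the FPKM scale the habenula count was 2 with a median of 0.94. Of the striatal markers, Drd2 and Adora2a, which mark the neurons known for enkephalin, were 8.19 (6.30 to 10.8) and 4.83 (4.09 to 5.75) times the anterior share. Drd1 was at 0.912 (0.840 to 0.991). The part of these regions in the values of Oprm1, Oprk1, Penk and Pomc was not tested. Outside neurons, the choroid plexus list was 2-fold higher in the posterior library in 3 of 3 genes, which all passed in that library alone. Oligodendrocyte markers had posterior shares 1.70 to 2.19 times the anterior in 5 of 5 genes, with 1 past 2-fold after centring, a median of 0.88 and summed shares of 3350 and 6367 FPM. Astrocyte markers were past 2-fold in 1 of 5 genes, with a median of 0.45 and summed shares of 806 and 1033 FPM. No marker of microglia (median -0.1) or endothelium (0.04) was 2-fold apart. The claustrum list had 1 of 3 genes past 2-fold toward the posterior side (median 0.33), and neither Pvalb nor Sst was 2-fold apart.

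Among the other endocannabinoid genes, 10 of 13 were compared and none was 2-fold apart, with a median of -0.08. Over all compared genes, 8.19% were past 2-fold toward the posterior side and 1.84% toward the anterior side. A count of 0 in a list this short is near those shares. Gde1, an enzyme gene of a further anandamide route, and Abhd12, a minor 2-AG hydrolase gene, were the most abundant, Gde1 in the anterior library at FPKM 144 and Abhd12 in the posterior library at FPKM 127. Pla2g4e, a calcium-dependent N-acyltransferase gene, came nearest to the line at -0.97, with an uncentred share 2.01 times higher in the anterior library (1.83 to 2.21). The CB2 gene Cnr2 had 12 and 30 fragments, and Trpv1 had 6 and 21, both too few to be compared. Of the 16 compared Gi/o partners none was 2-fold apart (median -0.05). Rgs9, a regulator that shortens Gi/o signals, was the highest with a posterior share of 1.94 (1.79 to 2.10), and Gnao1, a Go subunit gene, was the most abundant in the posterior library at FPKM 246. Rgs4, another such regulator, was the most abundant in the anterior library at FPKM 214.

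**Figure D5:**
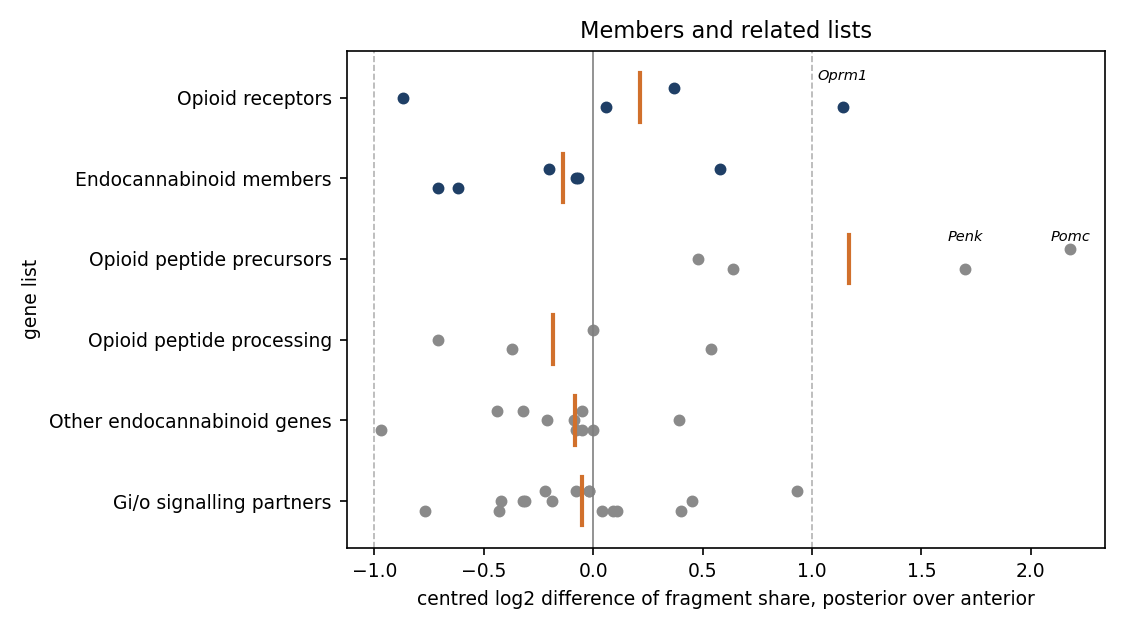
Centred log2 difference of fragment share (posterior over anterior) for the members and the related gene lists; each point is a compared gene, orange bars are list medians, and dashed lines mark 2-fold. Oprm1, Penk and Pomc lie beyond 2-fold in the posterior direction, and no gene lies beyond it in the anterior direction.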

How the data were processed

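Bulk RNA of 2 brain positions was measured, with 1 library each and no replicates. The authors deposited anterior values as FPKM per gene, with reads aligned by HISAT2 2.0.5 to mm10, per the submitters' processing notes. Counting program, annotation and strand use were not given in the sources used here. Posterior values were deposited as estimated counts and TPM per transcript from Salmon, per the labels' protocols. TPM was not used for comparison.

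Anterior fragments were recovered from FPKM and gene length, which gave whole numbers for 100% of 54532 genes within a tolerance of 0.001. Posterior FPKM was computed from estimated counts, effective lengths and their total. Genes were joined by identifier. Fragment shares used fragments in protein-coding genes (42447919 and 134495505). The median log2 shift removed by centring was 0.00298 for shares and 0.63 for FPKM. Fold intervals are exact Clopper-Pearson, level intervals exact Poisson, and intervals of ratios between genes Wald on the log scale. The procedure was tested on simulated counts drawn from the posterior profile with planted differences. Such counts hold no difference between pipelines or animals, so that test does not cover those. Python 3.11.15, pandas 2.3.3 and scipy 1.17.1 were used.

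The members, lists and tests were chosen with earlier results of these data known. The genes named were the 10 members, list genes at least 2-fold apart and the most abundant of each list. Rgs9, Pla2g4e, Rac1, Drd1, Sncg, Rorb, Cux2, Nwd2 and Cck, the precursors Pdyn and Pnoc, and genes with too few fragments were named after their values were seen. A planned list of related signalling genes is not reported here. Alternatives covered scale, filter, pseudocount, centring, threshold and transcript class.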

Additional observations from a re-analysis of the deposited data

How the results depend on the processing

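With 1 library at each position, no replicate could be left out. On the FPKM scale 2 members were past 2-fold toward the anterior library in place of 0, and the members' median was -0.29. Between these scales a gene differs by construction through its lengths, the library totals and the median removed by centring (0.63 for FPKM). The sign of the difference turned for Oprl1 (0.06 and -0.32), Faah (-0.07 and 0.37), Napepld (0.58 and -0.26) and, to just above 0, Daglb (-0.2 and 0.0). Before centring, posterior FPKM was above anterior FPKM for Oprl1 (18.2 and 14.6) and Napepld (7.15 and 5.43), so their negative FPKM sign came with the centring. The move between the scales was largest for Dagla (-0.08 and -0.92). FPKM also called 1 peptide processing gene (anterior), 1 other endocannabinoid gene in each direction, and 2 Gi/o partners in each direction. Of all compared genes, FPKM called 14.5% in the posterior direction and 7.11% in the anterior direction. Without the filter on low values, 1 other endocannabinoid gene (anterior) and 1 Gi/o partner (posterior) were called. With a minimum of FPKM 5, 8 members were compared, Oprm1 dropped out and 0 were called in the posterior library. At 1.5-fold, 3 members were called in the anterior library. Against posterior FPKM, 6 members had another rank per kb of the anterior gene length, and 6 with protein-coding transcripts alone. Protein-coding transcripts alone gave Oprl1 -0.02 and Dagla 0.01, with the sign turned. Only the posterior side was restricted there, and the anterior values stayed per gene. Pseudocounts of 0.1 and 1, no centring and scaling to all fragments moved each of the 10 members by less than its counting interval.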

Other observations

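Both Gpr55 and Kcnj5 were below FPKM 1 in each library and so were not compared, but their counts differed between the libraries beyond counting error. Gpr55, a receptor gene sometimes grouped with the cannabinoid receptors, had 52 anterior and 25 posterior fragments, and its anterior share was 6.59 times the posterior (4.02 to 11.1). Kcnj5, a subunit gene of the inwardly rectifying potassium channels opened by Gi/o receptors, had 22 and 324 fragments, and its posterior share was 4.65 times the anterior (3.02 to 7.52). The centred log2 difference of Kcnj5 was 1.51 by share but 0.17 on the FPKM scale, and that of Gpr55 was -1.33 and -1.31. These genes were chosen after their values were seen, and with 1 library at each position the differences have no replicate check.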
